A study of Mus musculus with 7 samples.

Results

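The genes described here handle iron and heme in the heart: Tfrc and Slc11a2 (uptake), Fth1 and Ftl1 (storage), Slc40a1 and Hamp (export and its control), Alas1 and Fech (heme synthesis) and Hmox1 (heme breakdown). They were taken as all non-control probes that carry one of these 9 gene names in the scanner files, which gave 18 of 56605 probes. Of these, 16 were well above background on at least 3 arrays and were tested, so that all 9 genes were among the 22976 genes tested. The other probes, probe 2 of Hmox1 and probe 2 of Slc40a1, were not well above background on any array and give no level.

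Heart RNA of adult female mice, from 4 knockout and 3 wild type samples, was read on 7 single-colour Agilent arrays of 60-base probes. The knockout samples, labelled Tg and given tamoxifen, lack Brg1 and Brm, either of which drives a SWI/SNF complex that moves nucleosomes with energy from ATP. Per the design text, the animals were Brm null, and tamoxifen removed Brg1 in adulthood by switching on Cre-ERT under an MHC (myosin heavy chain) promoter, which is active in heart muscle cells. The wild type samples are labelled NTg and received tamoxifen too, and the sources used here do not give their Brm status. Values are listed in the order Mutant_175, Mutant_182, Mutant_187 and Mutant_188 for knockout and Wild Type_181, Wild Type_183 and Wild Type_189 for wild type. Apart from the numbers, no label states that the samples are separate animals, so the p-values cover only how far these samples spread, which may be technical, and the small number of arrays limits every value.

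Smarca4, which encodes Brg1, had a relative signal of 5.87 to 14.9 in knockout and 32.8 to 34.7 in wild type hearts. Cardiomyocytes are the labelled cell type. All 13 cardiomyocyte markers listed were measured, but so were all 10 fibroblast, 9 endothelial and 16 macrophage markers. Cardiomyocyte markers summed to 2812 to 3710 in knockout and 6713 to 7242 in wild type, with 11 of 13 lower in knockout, and fibroblast markers to 958 to 1171 against 410 to 459. In such tissue samples, fewer cells of a type and less RNA per cell cannot be told apart. All arrays lay on 1 slide with 1 scan, knockout arrays in one row of it and wild type arrays in the other, so row and genotype cannot be told apart.

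Iron enters cells on transferrin through the transferrin receptor, is stored in a shell of heavy and light ferritin chains, and leaves through ferroportin, which the peptide hepcidin removes from the membrane. Heme is assembled in a chain of enzymes that starts and ends in the mitochondrion, and heme oxygenase breaks it into iron, carbon monoxide and biliverdin. Iron regulatory proteins bind hairpins in messages of this group: they hold back the translation of ferritin and ferroportin and protect the transferrin receptor message from decay. An array reads the amount of message and not its translation. The heart needs heme and iron for myoglobin and the respiratory chain.

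Of the 9 genes, 1 was called higher (Hmox1) and 4 were called lower (Fth1, Slc40a1, Alas1 and Fech), at an adjusted p under 0.05 from limma. Over all genes tested, 16.3% were called higher, 25.8% lower and 42.1% in either direction, and the 5 calls are given as a description. Among the 16 tested probes, 1 was called higher and 7 lower, against 16.5% and 24.0% of all probes and 40.5% in either direction. The knockout and wild type arrays did not overlap for 5 of the 9 genes, against 51.2% of all genes. The median log2 fold change of the 9 genes was 0.02, and that of all genes was -0.12. Another scaling between arrays moved the split of calls over all genes: it was 3749 higher and 5935 lower as reported, 4629 and 4740 with the percentile taken over probes above background on every array, and 8515 and 1707 with spike-in scaling. Each log2 fold change is knockout minus wild type. Levels are the signal of a probe relative to its own array's 75th percentile, and are compared between arrays, not between probes.

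**Figure D1:**
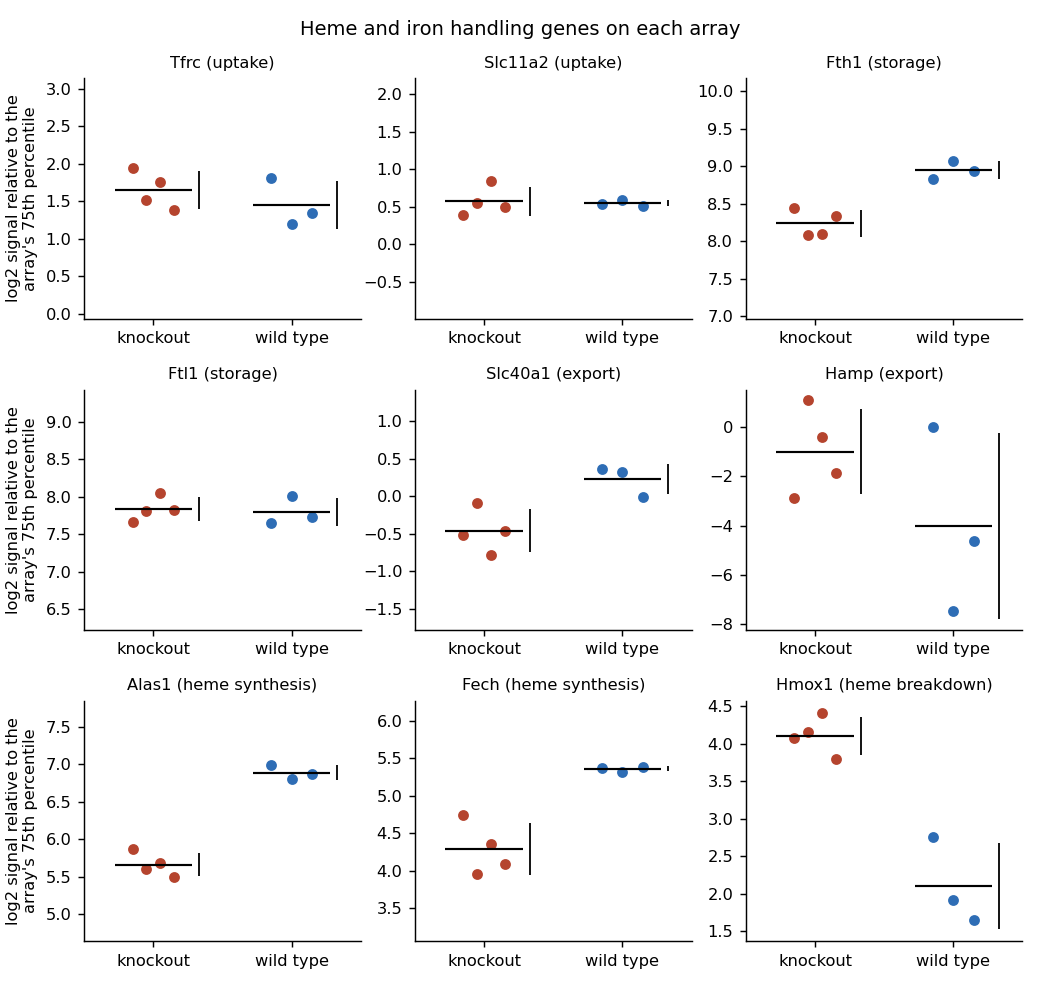
Log2 signal of the brightest probe of each gene relative to its array's 75th percentile, on the 4 knockout and 3 wild type arrays (points), with the mean (horizontal line) and SD (vertical line). Every panel spans the same height except that of Hamp, which is wider. The groups do not overlap for Fth1, Slc40a1, Alas1, Fech and Hmox1.

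Some of these calls rest on several probes of a gene. Tested probes taken to read coding sequence away from the 3′ end are therefore printed here as designed. They come from the scanner files and run 5′ to 3′ on the sense strand, with positions on mouse build mm9. Each has at least 1 reading frame without a stop codon. So do Alas1 probe 1 and the Fech probe, which hold the polyadenylation letters AATAAA, so an open frame does not show that a probe is coding.
Tfrc probe 2, chr16:32620470-32620529, plus strand: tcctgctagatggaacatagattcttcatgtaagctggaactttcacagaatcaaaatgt
Slc11a2 probe 4, chr15:100240516-100240575, minus strand: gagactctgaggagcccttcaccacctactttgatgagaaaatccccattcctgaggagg
Ftl1 probe 2, chr7:52714014-52714495, minus strand: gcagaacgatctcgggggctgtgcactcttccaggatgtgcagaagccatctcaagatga
Alas1 probe 2, chr9:106137803-106137862, minus strand: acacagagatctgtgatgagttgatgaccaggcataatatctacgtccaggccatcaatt
Alas1 probe 3, chr9:106141046-106141105, minus strand: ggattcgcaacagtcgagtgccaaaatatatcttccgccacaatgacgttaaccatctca
The 60 bases of the Ftl1 probe span 482 bases of the genome, so that this probe reads across a splice junction. Places in a transcript are those of the scanner files, since no annotation of that build was used.

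Tfrc, the transferrin receptor, showed no difference beyond the spread between arrays. Its probe 1, at chr16:32632255-32632314 and base 4288 of the transcript, read 3.84, 2.85, 3.37 and 2.60 in knockout and 3.50, 2.29 and 2.55 in wild type. The groups overlapped, and Wild Type_181 lay above 3 of the 4 knockout arrays. The log2 fold change was 0.20 (SE 0.20, 95% interval -0.26 to 0.66, adjusted p = 0.45, limma). Probe 2, printed above, gave -0.13 (adjusted p = 0.58, limma over probes). Scaled to spike-in RNA in place of the 75th percentile, which adds 0.57 to the median of all genes, Tfrc was called higher at 0.76 (adjusted p = 0.044).

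Slc11a2 (DMT1), which carries ferrous iron across the membrane of endosomes, read differently by probe. The brightest, probe 1 at chr15:100219212-100219271, read 1.31, 1.47, 1.78 and 1.41 in knockout and 1.44, 1.51 and 1.43 in wild type. It overlapped and gave 0.02 (SE 0.13, 95% interval -0.28 to 0.33, adjusted p = 0.90, limma). Probe 2, at chr15:100218333-100218392 and further towards the 3′ end of the same transcript variant 2, read 0.930, 0.976, 1.12 and 0.994 in knockout and 1.75, 1.69 and 1.66 in wild type. All 4 knockout arrays lay below all 3 wild type arrays there, and the probe was called lower at -0.76 (SE 0.11, adjusted p = 0.0018, limma over probes, where 24.0% were called lower).

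Its probes thus changed by unequal amounts, and none was called higher. Within each array, the log2 signal of probe 2 minus that of probe 1 was -0.67 to -0.50 in knockout and 0.17 to 0.28 in wild type, so these neighbouring stretches changed unequally. This contrast of the probes was chosen after their values were seen and is given without a test. Probe 2 holds the letters AATAAA, those of the usual polyadenylation signal, as do 5 of the 18 probes of the 9 genes, and probe 1 does not. Probe 3, the one probe assigned to transcript variant 1, at chr15:100223347-100223406, read 0.626, 0.552, 0.474 and 0.445 in knockout and 0.707, 0.674 and 0.704 in wild type. The groups did not overlap on probe 3, but it was not called at -0.42 (adjusted p = 0.052, limma over probes). Probe 4, printed above, gave -0.38 (adjusted p = 0.18, limma over probes) with overlapping groups. DMT1 messages are known in forms with and without an iron-responsive hairpin, and the files do not say which probe reads which.

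The ferritin genes parted. Fth1, the heavy chain with the iron-oxidising site, read 348, 272, 273 and 324 in knockout and 456, 539 and 488 in wild type. The groups did not overlap, and Fth1 was called lower at -0.71 (SE 0.14, adjusted p = 0.0053, limma). Ftl1, the light chain that helps iron settle in the shell, read 202, 224, 264 and 227 in knockout and 201, 258 and 212 in wild type. Its groups overlapped, with a log2 fold change of 0.04 (SE 0.14, 95% interval -0.30 to 0.37, adjusted p = 0.86, limma). Probe 2 of Ftl1, which crosses the splice junction, gave -0.02 (adjusted p = 0.92, limma over probes).

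The Fth1 call depended on the scaling. Its processed signal before any scaling was 322156, 305827, 313147 and 271205 in knockout and 325216, 339313 and 336967 in wild type and was not saturated on any array. Quantile normalization gave -0.28 (adjusted p = 0.057) and spike-in scaling -0.14 (adjusted p = 0.52). With spike-in scaling Ftl1 was called higher at 0.60 (adjusted p = 0.044). Both ferritin genes have many near-identical pseudogene copies in the mouse genome, whose part in these signals was not tested. Fth1 has a single probe, at chr19:10059485-10059544.

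Slc40a1 (ferroportin), the only known exporter of iron from cells, read 0.701, 0.941, 0.581 and 0.725 in knockout and 1.28, 1.26 and 0.997 in wild type. All knockout arrays lay below all wild type arrays, with Mutant_182 and Wild Type_189 nearest to each other. Its probe lies at chr1:45965255-45965314 and was called lower at -0.69 (SE 0.18, adjusted p = 0.020, limma). The call was lost without Wild Type_181 (-0.62, adjusted p = 0.075) and without Wild Type_183 (-0.64, adjusted p = 0.077). With spike-in scaling it was -0.12 (adjusted p = 0.71). Macrophages also express ferroportin, and on their brightest probes 9 of 16 macrophage markers were higher and 1 lower in knockout. Their part in the value of Slc40a1 was not tested.

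Hamp (hepcidin), made mainly in liver, varied more between arrays of one genotype than any other member. It read 0.137, 2.14, 0.769 and 0.275 in knockout and 1.01, 0.0056 and 0.041 in wild type. The groups overlapped, since Wild Type_181 was above 3 of 4 knockout arrays and Wild Type_183 was not well above background. The log2 fold change of 3.02 had an SE of 1.71 and a 95% interval of -0.98 to 7.03, and it was not called (adjusted p = 0.19, limma). Without Wild Type_181 the fit gave 5.04 and a call (adjusted p = 0.023), but Wild Type_183 was then 1 of the 2 wild type arrays left, so that number is no measured size. Markers of liver summed to 0.346 to 0.503 in knockout and 0.356 to 0.432 in wild type, and their part in Hamp was not tested.

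Mice have a second hepcidin gene, Hamp2, which read 0.033, 0.027, 0.022 and 0.025 in knockout and 0.204, 0.117 and 0.173 in wild type. On all 4 knockout arrays it was not well above background. With the scaling as reported, it was at least 4.96-fold lower in knockout. With spike-in scaling the log2 fold change of its measured signals was -2.05, against -2.61 as reported, so the bound does not carry over. Hamp2 passed the filter through the wild type arrays alone, so a difference had to appear, and no p is given as support for one. For that bound, each knockout array was given its lowest signal called well above background, or the signal of the probe where that was higher, and the wild type mean was divided by the mean of these. The probes of the pair read the same end of the coding part, and they differ at 11 of the 53 bases printed here up to the stop codon, marked by capitals.
Hamp probe, chr7:31727496-31727548, minus strand: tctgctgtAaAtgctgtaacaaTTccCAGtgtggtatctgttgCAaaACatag
Hamp2 probe, chr7:31707527-31707579, minus strand: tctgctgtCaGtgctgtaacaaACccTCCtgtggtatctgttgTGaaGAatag
Cross-hybridisation between them was not tested.

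**Figure D2:**
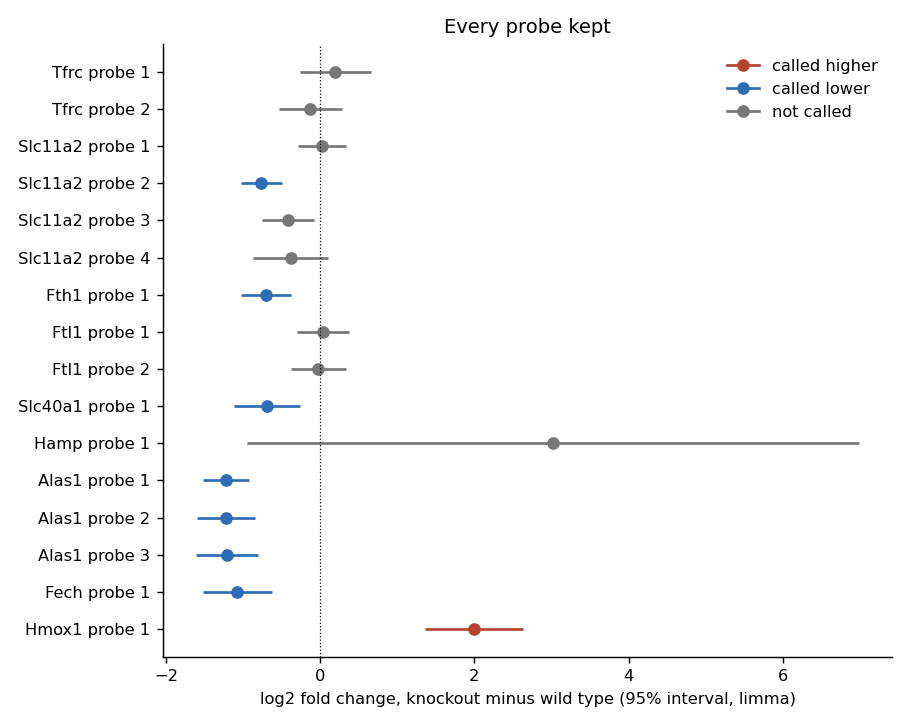
Log2 fold change (knockout minus wild type) of the 16 tested probes of the 9 genes with its 95% interval from limma fitted to every kept probe. Points are red where called higher, blue where called lower and grey where not called. The 3 Alas1 probes sit together near -1.2, the 4 Slc11a2 probes run from -0.76 to 0.02, and the Hamp interval is the widest.

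Alas1, which makes aminolevulinate in the first and rate-limiting step of heme synthesis outside red cells, was lower in every knockout heart. Its brightest probe, at chr9:106136284-106136343, read 58.6, 48.5, 51.5 and 45.3 in knockout and 127, 111 and 117 in wild type. The groups were far apart, and the log2 fold change was -1.22 (SE 0.13, adjusted p = 0.00036, limma), 2.33-fold lower. The Alas1 probes printed above gave -1.22 (adjusted p = 0.0010) and -1.20 (adjusted p = 0.0015, limma over probes). All 3 probes were thus called lower by nearly the same amount. Alas1 was called lower under all 18 alternatives tried, from -1.29 to -0.66, the last with spike-in scaling.

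Fech (ferrochelatase), which puts iron into the porphyrin ring in the last step, read 26.8, 15.5, 20.5 and 17.1 in knockout and 41.5, 39.9 and 41.7 in wild type. The wild type arrays lay close together and above every knockout array, among which Mutant_175 was highest. Its probe lies at chr18:64616928-64616987 and was called lower at -1.07 (SE 0.19, adjusted p = 0.0039, limma). With spike-in scaling it was -0.51 and not called (adjusted p = 0.10).

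Enzymes between these ends of the pathway fell as well. Cpox, which makes protoporphyrinogen, fell by 1.66 (adjusted p = 1.0e-04, limma). Alad, which joins aminolevulinate into porphobilinogen, fell by 1.601 (adjusted p = 0.00012), and Uros, which closes the ring, fell by 1.14 (adjusted p = 0.00036), while 1 of its 3 probes was not called at -0.32. Cpox read 1.504, 1.94, 1.77 and 1.94 in knockout and 5.598, 5.59 and 5.71 in wild type. Urod and Ppox, named after their values were seen, were called lower at -0.84 and -0.67. All 7 enzymes described here were called lower without overlap between the groups, with a median of -1.14. Over all genes, 25.8% were called lower and 51.2% did not overlap. Cpox, Alad and Uros were named for the smallest p of their role, so this count and median only describe the genes chosen. With spike-in scaling all 7 were below 0 and 4 were called lower (Alas1, Alad, Uros and Cpox), with a median of -0.57.

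**Figure D3:**
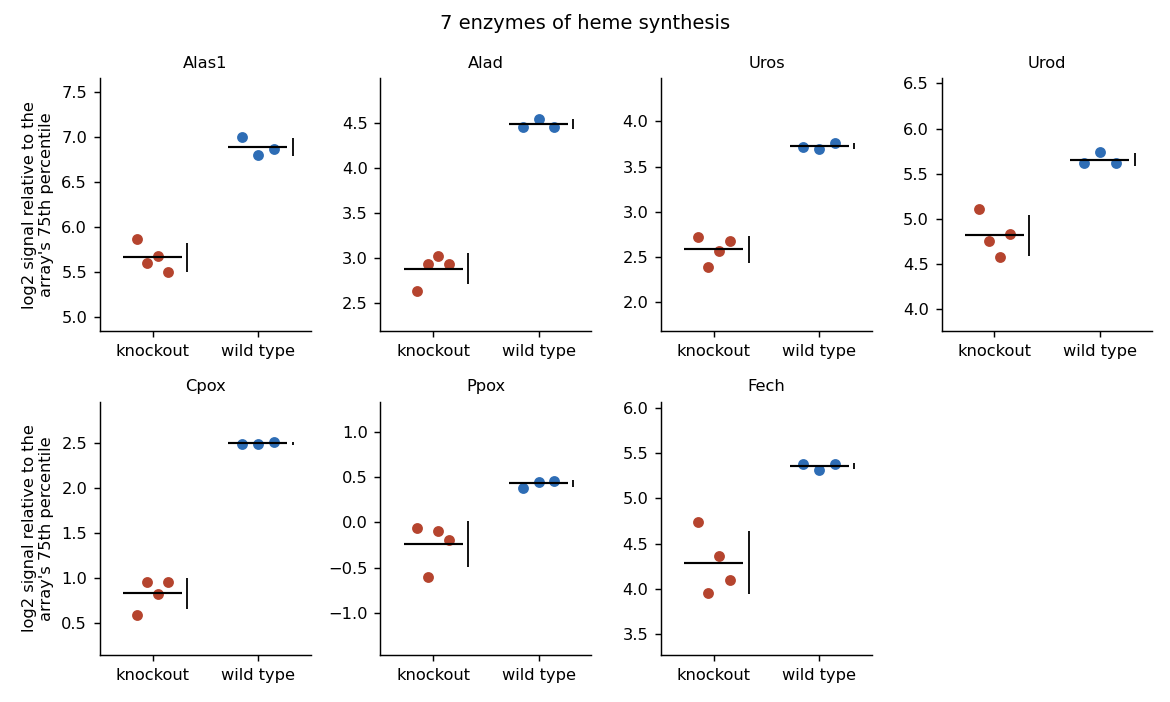
Log2 signal of 7 enzymes of heme synthesis relative to the array's 75th percentile, on 4 knockout and 3 wild type arrays (points) with mean and SD (lines). Every panel spans the same height, and in each the knockout arrays lie below all wild type arrays.

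Of the 15 other genes listed for heme synthesis, which include enzymes and carriers of heme precursors, 12 were called lower and 0 higher, and the median was -0.67. Those not called were Alas2 (0.39), Abcb10 (0.04) and Slc25a37 (0.02). Over all genes, 25.8% were called lower and 16.3% higher. With spike-in scaling 3 of the 15 were lower and 1 higher, and their median was -0.11. That scaling called 7.4% of all genes lower and 37.1% higher. Alas2, the red cell form of the first enzyme, read 9.79, 3.09, 1.38 and 2.68 in knockout and 2.42, 2.30 and 2.78 in wild type, with Mutant_175 apart. Of the red cell markers 9 of 12 were measured, with 0 called either way, and they summed to 635 to 1851 in knockout and 1221 to 1377 in wild type. The part of red cells or of cardiomyocytes in the fall of these enzymes was not tested.

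Hmox1, the inducible heme oxygenase, was higher in every knockout heart and was the only member called higher. It read 16.9, 17.8, 21.2 and 13.9 in knockout and 6.73, 3.78 and 3.15 in wild type. The lowest knockout array lay well above the highest wild type array, Wild Type_181. The log2 fold change was 2.0 (SE 0.27, 95% interval 1.36 to 2.64, adjusted p = 0.0012, limma), on a probe at chr8:77624406-77624466. Hmox1 was called higher under all 18 alternatives, from 1.77 to 2.57. Macrophages are rich in heme oxygenase, and macrophage markers summed to 192 to 328 in knockout and 174.7 to 188.8 in wild type. Of the 16 markers, 9 were called higher and 1 lower. Leaving out Mutant_175 gave 14 higher and 1 lower, and leaving out any other array gave 8 higher and 0 or 1 lower. Lgals3 was called higher at 3.12 and Mrc1 at 1.41, and Adgre1 at 0.58 and Itgam at -0.34 were not called. Ptprc was called lower at -0.44 on its brightest probe, while another of its probes was called higher. With the mean over the probes of a gene, 10 of the 16 markers were higher and 0 lower. The part of macrophages in the rise of Hmox1 was not tested.

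The other genes of heme breakdown were not called on their brightest probes. Hmox2, the constitutive heme oxygenase, read 12.9, 11.2, 10.2 and 10.69 in knockout and 12.1, 11.7 and 12.6 in wild type, a log2 fold change of -0.12 (adjusted p = 0.46, limma). The biliverdin reductases Blvra and Blvrb gave 0.06 (adjusted p = 0.64) and -0.03 (adjusted p = 0.92), but the other probe of Blvra was called higher at 0.35 (adjusted p = 0.049). With spike-in scaling Blvra was called higher at 0.63 (adjusted p = 0.022).

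Factors that act on Hmox1 and the ferritin genes moved both ways, 4 of the 9 higher and 2 lower, and their median was 0.12. Spike-in scaling gave 5 higher and 0 lower. Hif1a, the oxygen-regulated factor, rose by 1.79 on its brightest probe (adjusted p = 0.00030), while its other probe gave 0.40 and was not called. Mafk, a small partner of NRF2 and BACH1, rose by 1.19 (adjusted p = 0.0023). Bach1, the heme-sensing repressor of Hmox1, fell by 0.95 (adjusted p = 0.00071) and read 2.21, 2.26, 2.04 and 2.53 in knockout and 4.18, 4.29 and 4.62 in wild type. Bach1 was not called with spike-in scaling, at -0.39 (adjusted p = 0.091). Nfe2l2, which encodes NRF2, was not called at -0.11. Of 5 other targets of NRF2 measured, 3 were higher, 0 lower and 2 not called, where 16.3% of all genes were called higher and 25.8% lower. The higher ones were Srxn1 (sulfiredoxin) at 1.82, Txnrd1 (thioredoxin reductase) at 0.93 and Gclc (glutathione synthesis) at 0.86. Without Mutant_175 the count was 3 higher and 1 lower. Without Wild Type_181 or without Wild Type_183 it was 2 higher and 0 lower.

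Among the genes whose pattern over the 7 arrays was most like that of Hmox1 were Fmod, with a Pearson's r of 0.995, and Chil1, with 0.992. The arrays fall into 2 genotypes, and the gap between these is shared by the points. Windows of 250 bases before to 50 after the start, from RefSeq on build GRCm38.p6, were matched for 5 of the 9 genes (Tfrc, Fth1, Ftl1, Hamp and Alas1) and gave 8 windows. The core of the antioxidant response element, TGACNNNGC, searched on both strands, was in 0 of these 8 and in 12.4% of all promoters. The E-box CACGTG was in 0 of 8 and in 7.15% of all. This says only that these letters are not in these windows.

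Over the wider list of 91 measured heme and iron genes that are not among the 9, 17 were called higher and 38 lower, and the median was -0.24. These are 18.7% and 41.8% of the list, against 16.3% and 25.8% of all genes. Counts differed by role. Genes of iron uptake had 5 called higher and 0 lower among 10, and their median was 0.96. The count was 3 without Mutant_182 or without Wild Type_189, and 3 of 8, with a median of 0.45, when only genes above background on all arrays were kept. Steap2, a metal reductase, rose by 2.08 (adjusted p = 0.0010), Trf, transferrin, by 0.74 (adjusted p = 0.0047) and Lcn2, which binds iron-carrying siderophores, by 1.42 (adjusted p = 0.0067). Trf read 18.04, 18.9, 24.7 and 19.5 in knockout and 12.2, 12.7 and 11.3 in wild type.

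For export and storage beyond the members, calls were few. Of the 2 measured ferroxidases of export, neither was called on its brightest probe, with Cp at 0.18 and Heph at 0.01. Other Cp probes read otherwise, and 2 of its 5 probes were called lower, at -1.24 (adjusted p = 0.0026) and -1.13 (adjusted p = 0.0034, limma over probes). Another 2, at -0.44 and -0.38, were not called, so only the brightest probe lay above 0. With the mean over the probes of a gene, 1 of the 2 ferroxidases was called lower and 0 higher. With spike-in scaling the brightest probes of both were called higher, Cp at 0.75 (adjusted p = 0.012) and Heph at 0.58 (adjusted p = 0.026). Among the 4 storage genes measured, the iron chaperone genes Pcbp2 and Pcbp1 went apart, with -0.58 (adjusted p = 0.0062) and 0.39 (adjusted p = 0.021), and Pcbp3 was not called at 0.41. No gene of this role was called higher when any wild type array was left out. With spike-in scaling Pcbp2 was not called at -0.015 (adjusted p = 0.95), Pcbp1 was called higher at 0.95 and Pcbp3 was called higher at 0.97 (adjusted p = 0.012). Genes that control hepcidin and cellular iron had 0 of 11 higher and 3 lower, where 16.3% of all genes were called higher and 25.8% lower. Hamp2 is among the 3 lower genes, and it passed the filter through the wild type arrays alone. When only genes above background on all arrays were kept, 1 of 8 was higher and 2 were lower. With spike-in scaling the split turned to 4 higher and 2 lower, and the median was 0.42, against -0.14 as reported. That scaling called 37.1% of all genes higher and 7.4% lower. Besides Hamp2, Hjv (hemojuvelin) fell by 1.14 (adjusted p = 0.00051) and Ireb2 (iron regulatory protein) fell by 0.35 (adjusted p = 0.031), the last not called with spike-in scaling, at 0.22.

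Genes of heme transport and scavenging had 3 of 8 higher and 2 lower, where 16.3% of all genes were called higher and 25.8% lower. Spike-in scaling gave 5 higher and 1 lower, where it called 37.1% of all genes higher and 7.4% lower. Only 1 of the 8 was lower when any array other than Mutant_187 was left out. Hp (haptoglobin, which binds free hemoglobin) rose by 2.96 (adjusted p = 0.00014) and read 2.95, 4.81, 5.12 and 4.93 in knockout and 0.729, 0.477 and 0.507 in wild type. Lrp1, a receptor of heme bound to hemopexin, rose by 1.38 (adjusted p = 0.00018), and Flvcr2, a heme and choline transporter, fell by 1.86 (adjusted p = 0.00064). The hemoglobin receptor Cd163, also a macrophage marker, was called higher at 0.82.

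Genes of iron-sulfur cluster assembly had 0 called higher and 15 lower among 18, and their median was -0.72. Over all genes, 16.3% were called higher and 25.8% lower. Nubpl, needed to assemble complex I, fell by 1.57 (adjusted p = 0.00012). Nfs1, the cysteine desulfurase, fell by 1.10 (adjusted p = 0.00049) on its brightest probe, while its other probe was called higher at 0.38 (adjusted p = 0.038). The count of lower genes was 9 without Wild Type_189 and 10 without either of the other wild type arrays or with quantile normalization. With spike-in scaling 4 of the 18 were lower and 0 higher, and the median was -0.16. That scaling called 7.4% of all genes lower and 37.1% higher. Heme proteins of muscle had 1 of 6 higher and 3 lower, with Mb (myoglobin, also a cardiomyocyte marker) at -1.57, Cyc1 of complex III at -0.94 and Cygb (cytoglobin) at 0.76. Spike-in scaling gave 2 higher and 1 lower, and Cyc1 was not called at -0.38. Cardiomyocyte markers had a median of -1.25, and their part in these falls was not tested.

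**Figure D4:**
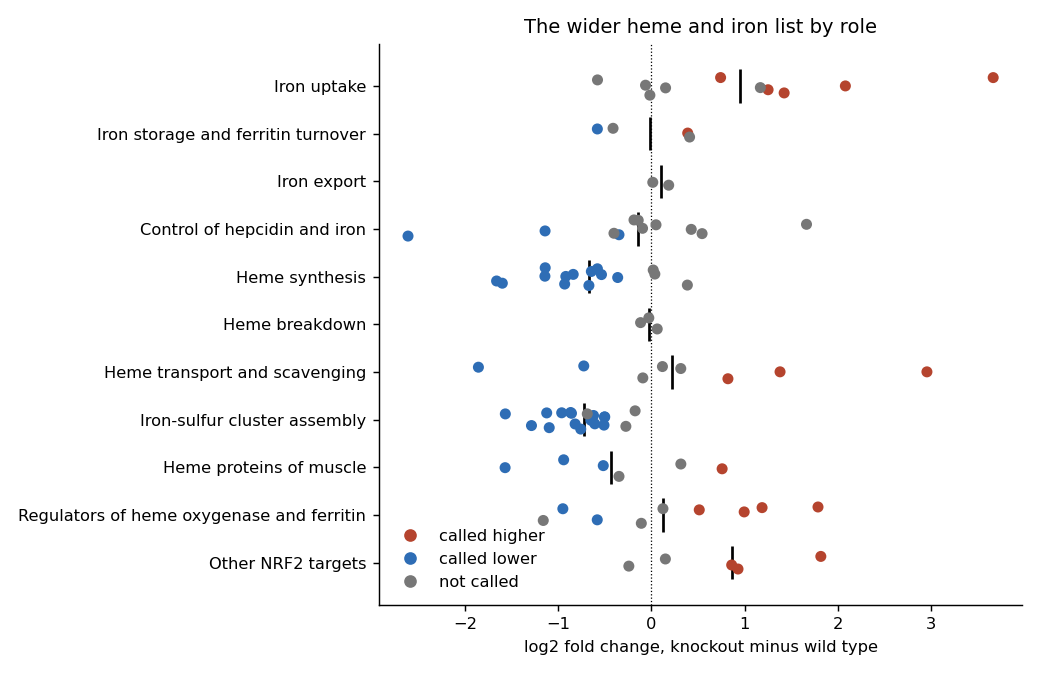
Log2 fold change (knockout minus wild type) of each measured gene of the wider list by role, red where called higher, blue where called lower and grey where not called, with the median of each role (black bar). Heme synthesis and iron-sulfur cluster assembly lie mostly below 0, and iron uptake and other NRF2 targets mostly above.

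**Figure D5:**
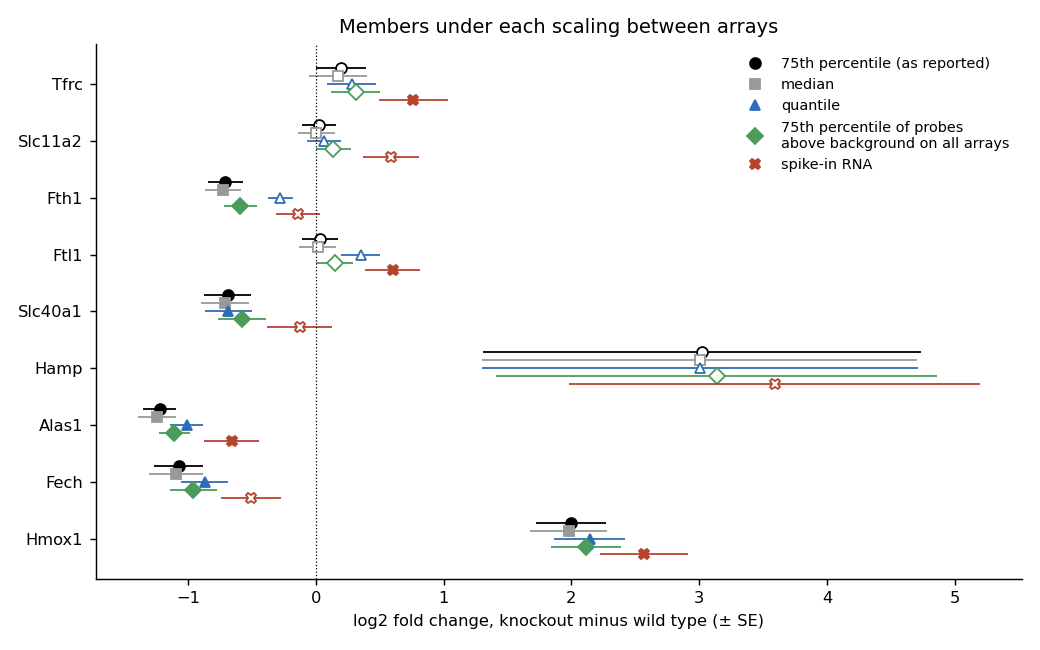
Log2 fold change (± SE) of the 9 genes under each scaling between arrays, filled where called at an adjusted p under 0.05. Spike-in scaling moves every gene up by about 0.57, and Hmox1 and Alas1 are called under all 5 scalings shown.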

How the data were processed

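Per the file headers, the authors scanned 7 single-colour (Cy3) arrays with Agilent Feature Extraction 10.7.3.1. Its processed signal, which is intensity after background subtraction (linear, not log), was used with the spot flags and the probe positions on build mm9. Per the labels' protocols, total RNA was prepared with a tissue kit and spike-in RNA was added at labelling. The deposited value table, used as an alternative, holds the same intensity, rounded and not scaled or centred: 99.5% to 99.6% of cells per column lay within 0.01 of the scanner value on the log2 scale. Its column medians were 65.5, 83.3, 80.9 and 61.1 in knockout and 47.7, 45.9 and 50.8 in wild type.

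Outlier spots (82 to 146 of 59305 per array) were left out, spots of a probe were averaged, and log2 signal minus the array's 75th percentile was used. Of all probes, 34490 passed the filter (well above background on 3 or more arrays), and the brightest of a gene stood for it. Genes were named through transcript accessions in RefSeq (GRCm38.p6), otherwise as in the files. limma 3.58.1 in R 4.3.3 (lmFit, eBayes, no covariates) compared knockout with wild type with Benjamini-Hochberg adjustment over all genes, or over 34488 probes for values of single probes. The method was tested on simulated data. The members, lists and tests were chosen with earlier results of these data known. Up to 3 genes per role with the smallest p were named, except a few that are not reported here. Cd163, Nfe2l2, Alas2, Abcb10, Slc25a37, Urod, Ppox and the macrophage markers were named after their values were seen. Alternatives were 4 other scalings between arrays (spike-in scaling used 7 probes), normexp with offset 50, the deposited table, 2 filters, the mean over probes, single probes, a trended robust prior and leaving out each array. Scaling each array to a percentile cannot show a shift that all messages share.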

Additional observations from a re-analysis of the deposited data

Results flagged for a closer look

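Among the 4 knockout arrays, 1 array stood apart from the rest by Dixon's ratio (gap to the nearest array over the range of the group) for 4 of the 48 probes and genes tested, where chance gives about 1 in 20. For Slc11a2 probe 4 the ratio was 0.937, with Mutant_187 high at 0.114 and the others at 0.0945 to 0.0956. For Alas1 probe 3 it was 0.877, with Mutant_175 high at 6.81 and the others at 4.66 to 4.88, all below the wild type arrays. For Hp it was 0.885, with Mutant_175 low at 2.95 and the others at 4.81 to 5.12. For Nfs1 it was 0.896, with Mutant_182 low at 12.1 and the others at 14.99 to 15.4.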

How the results depend on the processing

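No paired analysis was possible because no sample of one genotype shares a replicate number with one of the other. Of the 9 genes, Hmox1 and Alas1 kept their direction and call under all 18 alternatives. Under spike-in scaling 3 were called higher and 1 lower, against 1 and 4 as reported. Tfrc at 0.76 and Ftl1 at 0.60 were called, and Fth1 at -0.14, Slc40a1 at -0.12 and Fech at -0.51 were not. That scaling called 37.1% of all genes higher and 7.4% lower. On the wider list it gave 32 higher and 11 lower, against 17 and 38, and over all genes 83.3% of calls were higher, against 38.7% as reported and 36.9% to 49.4% under the other scalings and normexp. Quantile normalization left Fth1 uncalled at -0.28. The mean over probes gave Slc11a2 -0.38 (adjusted p = 0.030). Leaving out each array in turn gave these log2 ranges: Tfrc 0.070 to 0.38, Slc11a2 -0.064 to 0.084, Fth1 -0.77 to -0.64, Ftl1 -0.037 to 0.14, Slc40a1 -0.81 to -0.58, Hamp 1.30 to 5.04 and Fech -1.22 to -0.96. Slc11a2 turned without Mutant_187 (-0.064) and Ftl1 without Mutant_187 (-0.035) or Wild Type_181 (-0.037), none called. Counts of members were 1 to 2 higher and 3 to 4 lower, the second higher call being Hamp without Wild Type_181, and of the wider list 13 to 18 and 27 to 40. The filter over all arrays leaves Hamp untested. The causes were not tested.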
